A study of Mus musculus with 12 samples.

Results

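The genes described here encode the proteins of the cytosolic ribosome in the mouse. They were chosen by symbol: names beginning Rpl or Rps followed by a number, with the suffixes a, al, a1, x, l or l1 allowed, together with the stalk genes Rplp0, Rplp1 and Rplp2 and the laminin receptor gene Rpsa. Of the 53647 rows of the deposited table, 52093 carried a symbol, 88 matched the names, and 4 of these were left out as pseudogenes. The remaining 84 genes comprised 43 genes of the large subunit, 31 of the small subunit, 3 of the stalk and 7 paralogs with the suffix al, l or l1. The values were RNA-seq TPM (a level per transcript length, scaled to a fixed sum in each library) from mouse embryos at embryonic day 9.5, with polyadenylated RNA selected and paired reads of 75 bases. The genotype label was p53 +/+ (called wild type here) or p53 -/- (called knockout here). Embryos of either label were taken untreated, or 1 h or 3 h after their mothers had received 30 Gy of X-rays at 5 Gy per minute, and each of the 6 groups held 2 libraries numbered 1 and 2. The labels give no strain, no knockout allele and no number of embryos per library, and they do not say whether libraries 1 and 2 of a group were from different litters, so the tests rest on a spread that may be technical.

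A ribosome joins a small subunit, which reads the messenger RNA, to a large subunit, which forms the peptide bond. Most ribosomal proteins are needed in equal amounts, and the genes are usually expressed at high and closely matched levels. In vertebrates many of their messenger RNAs begin with a run of pyrimidines (the 5' terminal oligopyrimidine, or TOP, motif), through which the kinase mTOR controls their translation. Several ribosomal proteins, foremost RPL5 and RPL11 as part of the 5S ribonucleoprotein particle, bind the ubiquitin ligase MDM2 when ribosome assembly fails, and p53 then accumulates. Rps27l, a paralog of Rps27, is a known transcriptional target of p53. Rpl22l1 is a paralog of Rpl22 whose level Rpl22 is known to restrain. The family is also known for its many processed pseudogenes, whose sequences can be so close to the parent that short reads are hard to assign.

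The coding sequences of both paralog pairs are printed to show how far the partners differ over the length of a read. Rps27 (chromosome 3) and Rps27l (chromosome 9) each have 255 coding bases in the GENCODE vM21 transcripts. They were identical at 194 of 255 bases (76.1%), the longest identical run was 11 bases, and 53 of the 61 differences lay at the third base of a codon. Capitals mark the bases at which the partners differ, and the sequences run from start to stop codon.
Rps27: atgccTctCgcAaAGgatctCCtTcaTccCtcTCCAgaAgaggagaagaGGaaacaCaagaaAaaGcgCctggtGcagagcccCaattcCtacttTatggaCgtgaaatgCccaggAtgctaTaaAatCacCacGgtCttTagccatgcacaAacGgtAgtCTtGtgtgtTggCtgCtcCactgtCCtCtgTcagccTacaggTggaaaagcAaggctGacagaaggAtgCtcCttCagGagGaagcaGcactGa
Rps27l: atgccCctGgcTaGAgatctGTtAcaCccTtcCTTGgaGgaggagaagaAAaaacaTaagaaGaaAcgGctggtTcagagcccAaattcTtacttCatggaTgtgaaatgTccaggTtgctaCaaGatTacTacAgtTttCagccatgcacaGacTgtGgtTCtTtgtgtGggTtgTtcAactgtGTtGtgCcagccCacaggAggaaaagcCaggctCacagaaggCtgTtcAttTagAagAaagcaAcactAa

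Rpl22 (chromosome 4) and Rpl22l1 (chromosome 3) were identical at 259 of 369 aligned coding bases (70.2%), with a longest identical run of 26 bases. The stretch shown covers coding bases 175 to 324 of Rpl22 and 157 to 306 of Rpl22l1, 150 bases with 42 differences, again in capitals.
Rpl22: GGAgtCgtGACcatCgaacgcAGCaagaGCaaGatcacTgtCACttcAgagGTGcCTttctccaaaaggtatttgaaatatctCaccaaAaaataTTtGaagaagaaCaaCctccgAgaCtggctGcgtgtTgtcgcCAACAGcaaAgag
Rpl22l1: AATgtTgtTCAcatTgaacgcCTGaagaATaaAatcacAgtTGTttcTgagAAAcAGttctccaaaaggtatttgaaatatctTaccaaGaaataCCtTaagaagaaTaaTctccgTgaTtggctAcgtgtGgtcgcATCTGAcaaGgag

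By contrast, 60 bases of the Rpl31 coding sequence (bases 121 to 180) recur without a mismatch in the processed pseudogene Rpl31-ps8, whose aligned length of 378 bases was 100% identical to Rpl31.
Rpl31: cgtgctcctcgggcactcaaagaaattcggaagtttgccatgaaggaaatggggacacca
Rpl31-ps8: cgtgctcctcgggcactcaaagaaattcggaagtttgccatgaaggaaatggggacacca
A sequence copy was defined as a gene outside the list whose vM21 transcript aligned to a coding transcript of a member at 95% identity or more over at least 80% of its length. There were 636 such copies, 624 of them typed as pseudogenes. 80 members had at least 1 copy and 4 had none. The level of a member with close copies is therefore uncertain, because the authors' quantification had to divide reads between them.

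Promoters of the p53 target, its partner and Rpl7l1 are shown because Rps27l and Rpl7l1 were the members called at 3 h with the number as a block, and Rps27 is the partner with which Rps27l is compared. They come from RefSeq windows of the build GRCm38.p6, which differs from the submitters' build, and run 5' to 3' on the gene's strand from 80 bases before to 30 bases after the annotated start. Capitals mark matches of 3 motifs, CCGGAAG (an ETS-factor motif, both strands), AAGATGGCG (a YY1 motif, both strands) and CTTTCC (a TOP-like pyrimidine run, on the gene's strand from 20 bases before to 30 after the start).
Rps27l, chr9:66946006-66946115, + strand: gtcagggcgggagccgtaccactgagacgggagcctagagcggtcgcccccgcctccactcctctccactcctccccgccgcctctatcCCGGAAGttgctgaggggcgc
Rps27, chr3:90213619-90213728, - strand: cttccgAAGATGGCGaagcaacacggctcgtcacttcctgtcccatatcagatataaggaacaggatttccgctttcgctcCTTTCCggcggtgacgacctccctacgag
Rpl7l1, chr17:46782627-46782736, - strand: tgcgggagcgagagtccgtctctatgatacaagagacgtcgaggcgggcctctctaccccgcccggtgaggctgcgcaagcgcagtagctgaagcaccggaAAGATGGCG
Rps27l held CCGGAAG, Rps27 held AAGATGGCG and CTTTCC, and Rpl7l1 held AAGATGGCG. A RefSeq window was listed for 64 of the 84 genes, and the first window of each gene was searched over 300 bases for the first 2 motifs. CCGGAAG stood in 25 of 64 windows (39.1%) against 9.12% of 27025 promoters of all genes, AAGATGGCG in 4 of 64 (6.25%) against 1.49%, and CTTTCC near the start in 10 of 64 (15.6%) against 2.37%. A match is a string of letters in a window and not evidence of binding.

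The deposited TPM columns sum to about 1000000 in every library and keep no depth, so no counting error can be given. Between 13724 and 14357 genes reached 1 TPM in a library. Trp53, the gene named in the labels, lay between 66.8 and 211 TPM in the 6 libraries labelled wild type and between 79.1 and 265 TPM in the 6 labelled knockout. In untreated libraries numbered 2 it was lower under the knockout label, and in the other 5 pairs it was higher there, so the transcript goes against the label in 5 of 6 pairs and groups are called by their labels throughout. A deletion that leaves the transcript in place would not be seen in this value. Whether each library has the genotype that its label gives was not tested. Of 6 p53 pathway genes 4 rose at 3 h under the knockout label, Cdkn1a by 6.06 on the log2 scale, and 0 under the wild type label (limma). Over all genes 12.1% were called in either direction under the knockout label and 0% under the wild type label. The pair of 1 h libraries with the number 2 differed from the other 10, and values without them are given beside the results that rest on them most. Across all tested genes these 2 libraries had the highest correlation of any pair (Pearson r = 0.991, a description across genes). The embryo's cell types were present: primitive erythroid genes (6 of 6 at 1 TPM or more in every library) summed to between 1934 and 13364 TPM, and neural progenitor and cardiac muscle genes (3 of 3 each) to between 101 and 246 and between 448 and 1450 TPM. Neuron genes (3 of 4 or more) summed to between 35.6 and 162 TPM and visceral endoderm genes (3 of 4 or more) to between 12.6 and 328 TPM. Of 3 decidua genes 1 reached 1 TPM in each library, with sums of 26.1 to 62.0 TPM that rest almost wholly on 1 gene.

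Ribosomal protein genes made up 12.0% to 14.2% of all TPM in the 10 libraries other than the 1 h libraries numbered 2. Group means were 13.0% ± 0.304 (SD, n = 2) in untreated and 12.1% ± 0.193 (SD, n = 2) in 3 h libraries labelled wild type. They were 12.7% ± 0.486 (SD, n = 2) and 13.4% ± 0.390 (SD, n = 2) under the knockout label. The 1 h groups averaged 16.0% ± 5.21 (SD, n = 2) and 17.0% ± 3.96 (SD, n = 2), with the libraries numbered 2 at 19.6% and 19.8%. The small subunit took 5.26% to 6.21% and the large subunit 5.70% to 6.80% of TPM in the 10 libraries. Of the 100 genes with the highest mean TPM, 38 were ribosomal protein genes.

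**Figure D1:**
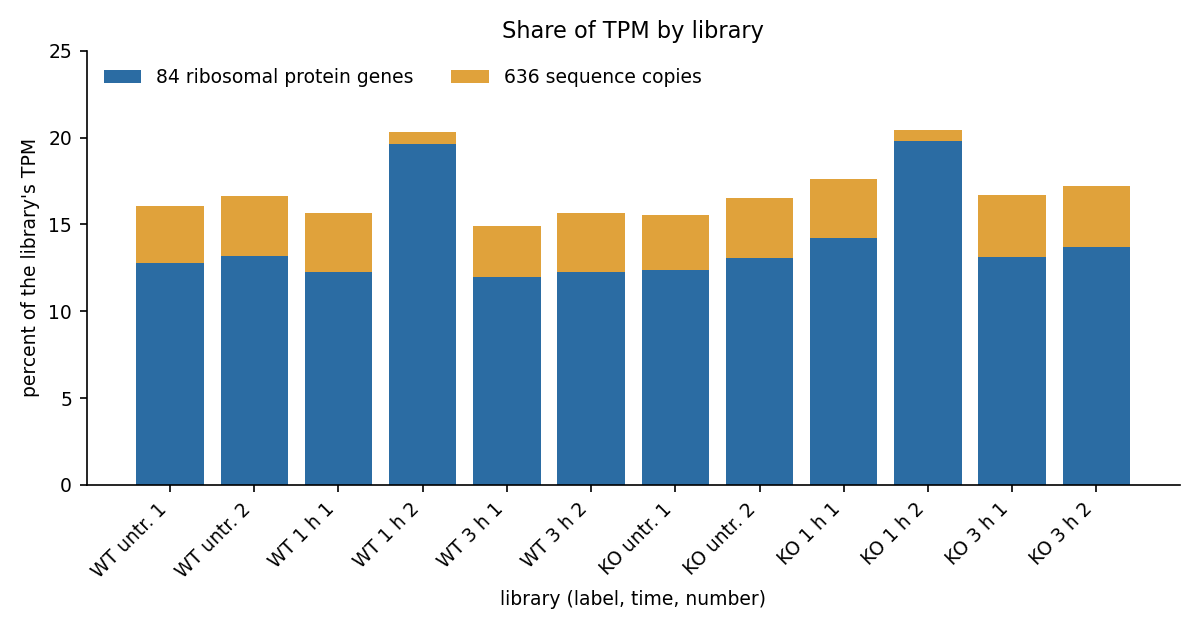
Share of each library's TPM (percent, y axis) taken by the 84 ribosomal protein genes (blue) and by their 636 sequence copies (orange), 1 stacked bar per library (x axis, label WT or KO, time and number). The 1 h libraries numbered 2 show the tallest blue bars, 19.6% and 19.8%, and copies of 0.648% and 0.634%, where the other 10 libraries have copies between 2.92% and 3.56%.

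81 of the 84 genes passed the filter of 1 TPM in at least 2 libraries. The 3 that did not were the paralogs Rpl3l, Rpl10l and Rpl39l, with means of 0.0758, 0.05 and 0.0833 TPM. Rpl3l is the striated muscle form of Rpl3, and Rpl10l and Rpl39l are forms best known from the testis. Mean TPM of the 81 ran from 118 (Rpl7l1) to 5968 (Rps2), with a median of 1506.5 against 13.1 for all 15535 genes tested. The highest were Rps2, a small subunit protein near the messenger RNA entry, at 4852 to 7237 TPM over the 12 libraries, Rps24 at 3909 to 5256 TPM and Rpsa at 2324 to 5487 TPM, and the ranges of all 3 overlap. The lowest were Rpl7l1, Rpl22l1 and Rpl39, with means of 118, 139 and 365 TPM. Rpl4, Rpl29 and Rpl19, all of the large subunit, varied least, with SDs of log2(TPM + 1) over the 12 libraries of 0.08, 0.09 and 0.09. Rpl22l1, Rps14 and Rps27 varied most, with SDs of 1.43, 1.08 and 1.05. Without the 1 h libraries numbered 2 these were 0.31, 0.69 and 0.72, and Rpl22l1 ranked 23 among the 81.

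Rps27l had the highest difference of any member at 3 h under the knockout label. In untreated libraries labelled knockout it stood at 187 TPM (number 1) and 387 TPM (number 2), at 1 h at 241 and 794 TPM, and at 3 h at 390 and 712 TPM. Under the wild type label it stood at 190 and 399 TPM untreated, 197 and 615 TPM at 1 h, and 201 and 375 TPM at 3 h. Libraries numbered 2 were higher than those numbered 1 in every group, so the groups overlap when the numbers are pooled. Within a number, the 3 h library labelled knockout was 2.08-fold (number 1) and 1.84-fold (number 2) above its untreated counterpart. The same ratio under the wild type label was 1.06 and 0.940. Against the wild type label at 3 h, the knockout label was 1.94-fold and 1.90-fold higher.

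In the fit of limma to log2(TPM + 1), which ignores the library number, Rps27l did not pass at 3 h under the knockout label (log2 difference 0.96, SE 0.751, adjusted p = 0.508). With the number as a block it passed (log2 difference 0.96, SE 0.226, limma adjusted p = 0.0154), as it did against the wild type label at 3 h (log2 difference 0.94, adjusted p = 0.0183). The difference between the 3 h responses of the labels was 0.97 (SE 0.319) with the block and did not pass (limma adjusted p = 0.0865). It passed when both 1 h libraries numbered 2 were also left out, a setting chosen after seeing the data (SE 0.106, limma adjusted p = 0.00320). No sequence copy of Rps27l was found. Primitive erythroid genes summed to 1934 and 5018 TPM in untreated and 13364 and 11083 TPM in 3 h libraries labelled knockout, and neural progenitor genes to 225 and 230 against 105 and 101 TPM. The part of these cell types in the Rps27l difference was not tested, and in such bulk samples fewer cells of a type and less RNA per cell cannot be told apart.

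Rps27, the partner of Rps27l in the small subunit, did not pass in any comparison between groups. It stood at 511 and 1535 TPM in untreated and 663 and 1822 TPM in 3 h libraries labelled knockout, which is 1.3-fold and 1.19-fold within the numbers. Under the wild type label it went from 679 and 1653 TPM to 654 and 1414 TPM. In the 1 h libraries numbered 2 it reached 3954 TPM (wild type label) and 3933 TPM (knockout label), with 554 and 705 TPM in those numbered 1. Rps27l amounted to 58.7% and 39.1% of Rps27 in the 3 h libraries labelled knockout, and to between 15.5% and 36.7% in the other 10. Over the 4 irradiated libraries of each label, the log2 ratio of Rps27l to Rps27 was -1.49 ± 0.636 (SD, n = 4) under knockout and -1.95 ± 0.522 (SD, n = 4) under wild type. The difference of 0.45 did not pass an exact two-sided permutation test (p = 0.343, adjusted over 2 ratios 0.686, smallest possible 0.0286), nor did it without both 1 h libraries numbered 2 (0.48, p = 0.2, smallest possible 0.1). It was 0.21 without the 1 h library numbered 2 of the wild type label, 0.21 without the 3 h library numbered 1 of the knockout label and 0.72 without the 1 h library numbered 2 of the knockout label. Pooling the libraries leaves time and number in the spread. Within pairs of one time and number, knockout minus wild type was -0.06 (number 1) and 0.38 (number 2) at 1 h, and 0.93 and 0.56 at 3 h. A paired exact sign-flip permutation test, chosen after seeing the data, gave p = 0.25 with 3 of 4 pairs higher, where the smallest possible is 0.125.

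Rpl22l1 stood at 35.0 to 67.8 TPM in 10 libraries and at 592 TPM (wild type label) and 593 TPM (knockout label) in the 1 h libraries numbered 2. Rpl22 stood at 1110 to 1435 TPM in the 10 and at 1926 and 1945 TPM in the same 2. The paralog therefore amounted to 2.97% to 5.17% of Rpl22 in the 10 libraries and to 30.8% and 30.5% in the 2. In the 1 h libraries numbered 1 the values were 43.6 TPM (wild type label) and 48.9 TPM (knockout label), within the range of the others. At 3 h Rpl22l1 was 0.669-fold and 0.626-fold of untreated under the wild type label (57.4 and 67.8 TPM to 38.4 and 42.5 TPM). Under the knockout label it was 1.14-fold and 1.07-fold (35.0 and 55.6 TPM to 39.9 and 59.6 TPM). The difference between these 3 h responses, 0.76 on the log2 scale, did not pass with all libraries (SE 1.80, limma adjusted p = 0.927). It did with the block and without both 1 h libraries numbered 2 (SE 0.195, limma adjusted p = 0.0381). The log2 ratio of Rpl22l1 to Rpl22 in irradiated libraries differed by 0.10 between labels (exact permutation p = 0.714, adjusted over 2 ratios 0.714, n = 4 against 4). Without both 1 h libraries numbered 2 the difference was 0.14 (exact permutation p = 0.5). Within pairs it was higher under knockout in 2 of 4 (paired exact permutation p = 0.75).

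**Figure D2:**
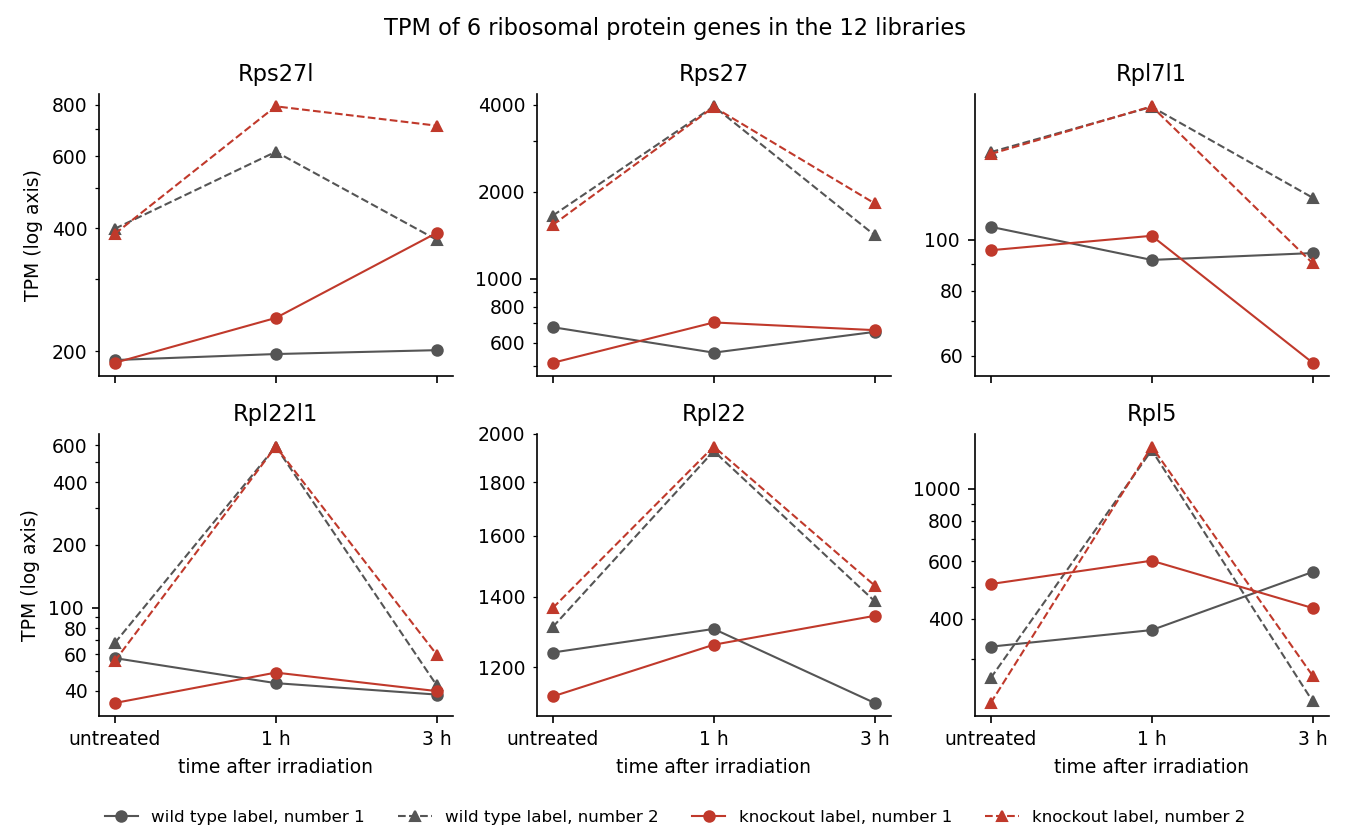
TPM (log axis) of Rps27l, Rps27, Rpl7l1, Rpl22l1, Rpl22 and Rpl5 against time after irradiation, 1 point per library, with lines joining libraries of one label (grey, wild type; red, knockout) and number (circles and solid lines, 1; triangles and dashed lines, 2). Rps27l at 3 h is above its untreated value under both numbers of the knockout label only, 390 and 712 TPM against 187 and 387 TPM, Rpl7l1 falls there, and the 1 h libraries numbered 2 form a peak shared by both labels in every panel.

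Rpl7l1, a relative of Rpl7 whose yeast counterpart acts in assembly of the large subunit, was the member that fell at 3 h under the knockout label with the number as a block. Under the knockout label it stood at 95.5 and 146 TPM untreated, 102 and 180 TPM at 1 h, and 58.2 and 90.2 TPM at 3 h. Under the wild type label it stood at 106 and 147 TPM untreated, 91.6 and 180 TPM at 1 h, and 94.4 and 120 TPM at 3 h. Within the numbers the 3 h value was 0.609-fold and 0.618-fold of untreated under the knockout label and 0.891-fold and 0.818-fold under the wild type label. Without the block the change under the knockout label did not pass (log2 difference -0.70, SE 0.415, limma adjusted p = 0.355). With the block it did (SE 0.146, limma adjusted p = 0.00991), as did the difference from the wild type label at 3 h (-0.55, limma adjusted p = 0.0265). Its single copy held 0.148% of the summed TPM.

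Among the other paralogs and the member with the suffix x, Rpl36al stood at 502 to 665 TPM in 10 libraries. In the 1 h libraries numbered 2 it stood at 809 and 827 TPM. Rps4x, named for the X chromosome that also carries other members, stood at 1463 to 1984 TPM in the 10 and at 2352 and 2391 TPM in the same 2. Neither passed in a comparison between groups.

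Across the family, 0 of the 81 tested genes were called (limma, Benjamini-Hochberg adjusted p under 0.05 over all genes) in any of the 9 comparisons between groups when the number was ignored. The comparison of 3 h with untreated under the knockout label called 12.1% of all genes and the comparison of labels at 3 h 10.3%. The difference between the 3 h responses called 3.45%. At an unadjusted p under 0.05 the members counted 0 in each of these 3. The smallest p between labels at 3 h were those of Rpl7l1 and Rpl19 (log2 difference 0.24). In the difference of responses they were those of Rps15a (log2 difference 0.44) and Rps27l. The median SE of the members' log2 differences was 0.38, against 0.27 for all genes. With the block, the median SE of members was 0.21 and 2 of 81 were called at 3 h under the knockout label, Rps27l higher and Rpl7l1 lower, against 29.2% of all genes. The same 2 genes were called between labels at 3 h, against 28.1%, and 0 in the difference of responses, against 13.4% (1 member at an unadjusted p under 0.05). The members all had means above 100 TPM, a level at which fewer genes were called. Of 1555 genes with a mean of 100 TPM or more, the 3 comparisons called 6.17%, 3.86% and 0.707% without the block. With the block they called 27.1%, 23.4% and 10.2%. The members' counts were below these shares as well, but 0 of 81 lies near 0.707%. The differences from these shares were not tested.

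The sizes of the differences were small. At 3 h under the knockout label the 31 small subunit genes had log2 differences from -0.03 to 0.35, the 43 large subunit genes from -0.07 to 0.25 and the 3 stalk genes from 0.06 to 0.21. Only Rps27l and Rpl7l1 among the 81 differed by more than 0.5 in either direction, while 32.8% of all tested genes did. The median level was 13.1 TPM over all tested genes and 1506.5 TPM over the members, and this share was not matched for level. Within both numbers 57 of 81 members were higher at 3 h and 5 were lower, where 28.9% of all genes were higher in both and 49.6% lower in both. The median over members was 0.08 and over all genes -0.12. Between labels at 3 h 64 of 81 were higher under knockout in both numbers and 1 lower, where 26.0% of all genes were higher and 52.6% lower. Scaled by size factors (median of ratios), which move the median of all genes to about 0, the members' median at 3 h under the knockout label became 0.22 and none was called. Under the wild type label 2 of 81 members were higher in both numbers and 49 lower in both, where 33.3% of all genes were higher in both and 27.6% lower in both. The members' median there was -0.11, against 0.02 for all genes. Rpl36al (-0.21) and Rpl3 (-0.45) had the smallest p there. In that comparison 0 of 81 members and 0% of all genes were called (limma, 0 members and 524 genes at an unadjusted p under 0.05, and 1 member and 1461 genes with the block).

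**Figure D3:**
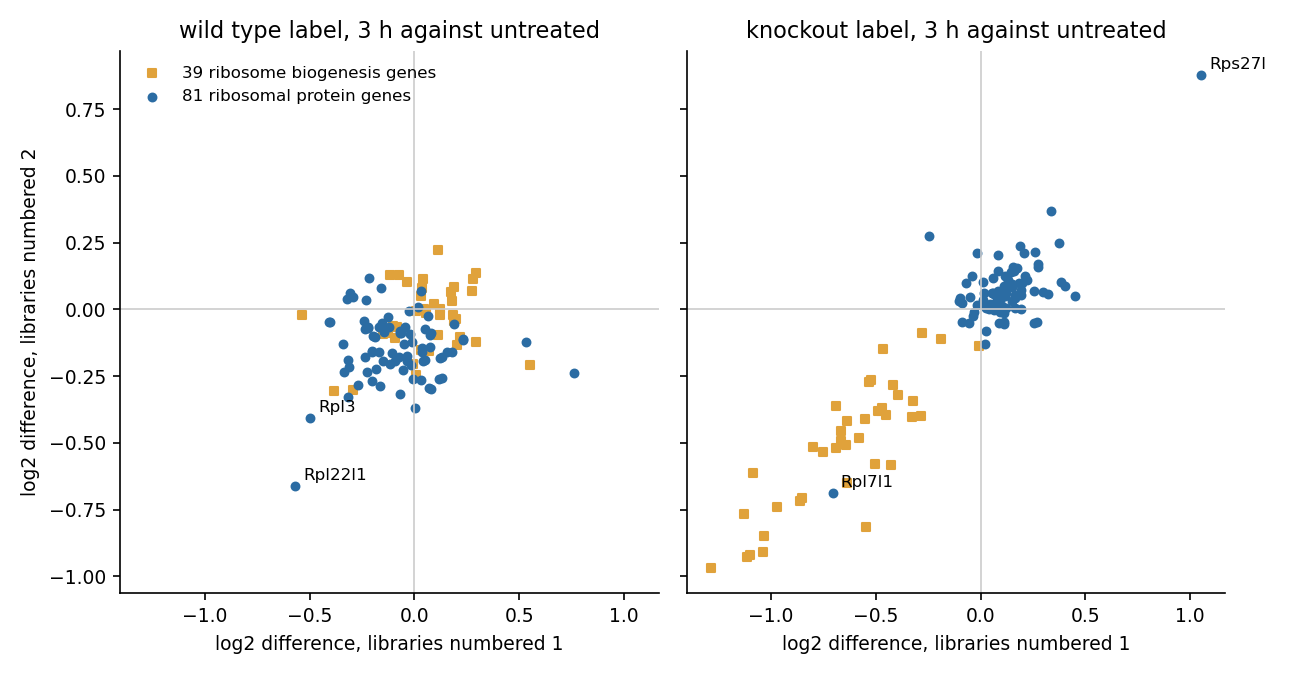
Log2 difference of TPM + 1 between 3 h and untreated libraries, number 1 (x axis) against number 2 (y axis), for 81 ribosomal protein genes (blue circles) and 39 ribosome biogenesis genes (orange squares), wild type label on the left and knockout label on the right. Under the knockout label all 39 biogenesis genes lie below 0 in both numbers, with Rpl7l1 among them, while the other ribosomal protein genes lie near 0 and Rps27l stands alone at 1.05 and 0.88.

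Without both 1 h libraries numbered 2 and with the block, a setting chosen after seeing the data, more members passed. At 3 h under the knockout label these were Rps27l, Rps19 (log2 difference 0.35, limma adjusted p = 0.0485), a small subunit protein whose loss causes Diamond-Blackfan anaemia, and Rpl7l1. That is 3 of 81, against 38.6% of all genes. Between labels at 3 h, 8 of 81 passed against 38.1% of all genes. Rps27l, Rps19, Rpl10a, Rpl24, Rpl3, Rpl19 and Rpl14 were higher under the knockout label, the last 5 by 0.21 to 0.30, and Rpl7l1 was lower. In the difference of the 3 h responses 4 of 81 passed against 22.9%: Rps27l, Rpl22l1 and Rpl3 (0.40, limma adjusted p = 0.0392) upward and Rpl7l1 (-0.47, limma adjusted p = 0.0393) downward. Rpl3, which lies close to the peptidyl transferase centre, went from 1306 and 1749 TPM untreated to 925 and 1319 TPM at 3 h under the wild type label. Under the knockout label it went from 1151 and 1719 TPM to 1108 and 1660 TPM.

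RPL5 and RPL11 form the 5S particle that binds MDM2. Rpl5 stood at 220 to 602 TPM in 10 libraries and at 1316 and 1350 TPM in the 1 h libraries numbered 2. At 3 h it was 0.844-fold (number 1) and 1.21-fold (number 2) of untreated under the knockout label and 1.70-fold and 0.847-fold under the wild type label, so the numbers disagreed. Its copies, led by Gm15500 with 1018 aligned bases at 100% identity, held 80.9% of the summed TPM of Rpl5 and its copies in the 10 libraries. Rpl11 stood at 1506 to 2465 TPM in the 10 and was 0.974-fold and 0.982-fold of untreated at 3 h under the knockout label. Of the other genes that load the particle, Rrs1 fell at 3 h under the knockout label (log2 difference -1.02, SE 0.193, limma adjusted p = 0.0105), and Rpf2 and Heatr3 fell only with the block (limma adjusted p = 0.0274 and 0.0166).

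The stalk proteins recruit the elongation factors. Rplp0 stood at 2667 to 3400 TPM over all 12 libraries and Rplp1 at 2286 to 3706 TPM in the 10 libraries. Rplp2 stood at 2552 to 3910 TPM in the 10 but at 1592 and 1741 TPM in the 1 h libraries numbered 2, where Rplp1 reached 6049 and 5773 TPM. The partners thus moved in opposite directions in those 2 libraries. At 3 h under the knockout label Rplp0 was 1.10-fold and 1.08-fold, Rplp1 1.14-fold and 1.18-fold, and Rplp2 1.09-fold and 1.00-fold of untreated, and none passed.

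Genes whose products assemble the ribosome were lower at 3 h under the knockout label. Of 39 ribosome biogenesis genes 11 fell and 0 rose (limma, median log2 difference -0.53), and with the block 31 fell. Of all genes 5.87% were called lower, and 18.1% with the block. In both numbers 39 of 39 were lower than untreated, against 49.6% of all genes and 5 of 81 ribosomal protein genes. In the same libraries neural progenitor genes summed to 105 and 101 TPM, against 225 and 230 TPM untreated, and neuron genes to 39.7 and 35.6 against 40.9 and 79.0 TPM. Primitive erythroid genes summed to 13364 and 11083 against 1934 and 5018 TPM. Decidua genes summed to 62.0 and 61.3 against 33.6 and 27.9 TPM, but only 1 of the 3 reached 1 TPM in each library. That sum therefore does not measure decidual tissue. Cardiac muscle genes summed to 1450 and 1009.9 against 1048 and 626 TPM, and visceral endoderm genes to 125 and 328 against 12.6 and 102 TPM. The part of these cell types in the fall of the biogenesis genes and in the differences of Rps27l and Rpl7l1 was not tested. Nop2, an rRNA methyltransferase, fell by 1.01, Ddx21, a nucleolar helicase, fell by 0.94, and Gnl3 (nucleostemin) fell by 0.95 on the log2 scale. Under the wild type label 9 of 39 were lower in both numbers and 13 higher, and none was called. Of 12 tested genes of RNA polymerase I and rDNA transcription, Rrn3, an initiation factor, rose (0.55), and with the block 2 rose and 4 fell. Of 19 genes of translation control, 3 rose and 2 fell, and with the block 3 rose and 8 fell. The share of all genes called in either direction was 12.1%, and 29.2% with the block. Those called without the block are named here. Ddit4 (2.49), Sesn2 (4.43), both inhibitors of mTOR signalling, and Eif4ebp1 (1.06), a repressor of cap-dependent translation, rose. Myc fell by 1.43 and Mycn by 0.96 on the log2 scale, both activators of ribosome synthesis.

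Of 18 translation factors whose messenger RNAs share the TOP motif with ribosomal protein genes, 0 were called at 3 h under the knockout label without the block and 1 with it (Eif4b, log2 difference -0.52, limma adjusted p = 0.0265), and the median was 0.00. The 5 ribosomal proteins outside the name rule, among them Fau and Rack1, had 0 called with or without the block and a median of 0.04. That median is the value of Rpl37rt (SE 1.96), which is also counted among the sequence copies of Rpl37. Rpl37rt stood at 1057 to 2040 TPM in 10 libraries and at 36.6 and 37.5 TPM in the 1 h libraries numbered 2. Of 78 mitochondrial ribosomal protein genes 0 were called (median -0.16), and with the block 3 rose and 11 fell. Of 10 snoRNA host genes Snhg15 rose (1.29) and Snhg5 fell by 0.59 on the log2 scale, and with the block 1 rose and 1 fell. Of 73 nuclear genes of oxidative phosphorylation 1 rose and 0 fell (median 0.14), and with the block 2 rose and 0 fell. For all of these lists, the share called over all genes in either direction was 12.1%, and 29.2% with the block. Differences of the lists from these shares were not tested.

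At 1 h, 0 of 81 members were called under the wild type label, where 0% of all genes were (limma, 1 member and 618 genes at an unadjusted p under 0.05). Under the knockout label 0 were called, against 0.103% of all genes (1 member and 1407 genes at an unadjusted p under 0.05). Again 0 were called once the number was a block, and the unadjusted p was then under 0.05 for 19 of 81 members and 3342 genes. The members' medians were 0.28 and 0.42, above the medians of all genes, -0.02 and -0.06. Within both numbers 75 of 81 members were higher at 1 h under the knockout label and 0 lower, where 27.3% of all genes were higher and 36.8% lower. In the libraries numbered 1 alone the medians were -0.08 (wild type label) and 0.24 (knockout label), against 0.59 and 0.59 in those numbered 2. Without both 1 h libraries numbered 2 and with the block the medians were -0.09 and 0.21. Rpl37, a large subunit protein, had the smallest p under both labels (log2 difference 0.73 and 0.97, limma adjusted p = 1.00 and 0.384). It stood at 613 and 597 TPM untreated and 762 and 1329 TPM at 1 h under the wild type label, and at 726 and 606 TPM and 1203 and 1406 TPM under the knockout label. Next came Rpl36a under the wild type label (0.81) and Rps28 under the knockout label (0.88), each with an SE of 0.40. The copies of these 3 genes held 67.7%, 78.5% and 42.7% of the summed TPM. Between labels at 1 h, 0 of 81 members were called against 0.0386% of all genes (limma, 0 members at an unadjusted p under 0.05). Rpl37 (log2 difference 0.37) and Rplp0 (log2 difference 0.19) had the smallest p there. In the difference of the 1 h responses 0 of 81 were called against 0.00644% (0 members at an unadjusted p under 0.05). Rps15a (log2 difference 0.32) and Rplp1 (log2 difference 0.43) had the smallest p in that comparison. The members' medians in these comparisons were 0.12 and 0.18, and 0.23 and 0.28 with the block and without both 1 h libraries numbered 2, where 0 members were called. In untreated libraries 0 of 81 were called between labels, against 0.0193% (0 members at an unadjusted p under 0.05). The members' median there was -0.05, with values from -0.49 (Rpl22l1) to 0.19, and Rps15a (-0.26) and Rpl27a (-0.25) had the smallest p.

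Many members differed between libraries numbered 2 and 1. Of 81 members 39 were higher in number 2 and 10 lower (limma with the block), where 31.4% of all genes were higher and 11.5% lower. Rps7 (log2 difference 0.60), Rps27l (1.20), Rpl7 (0.87), Rpl35a (0.74), Rps3 (0.51) and Rps27 (1.79) had the smallest p among those higher. Rpl21 (-0.78), Rpl6 (-0.74), Rpl23 (-0.77), Rps26 (-0.35), Rps2 (-0.44) and Rpl30 (-0.45) had the smallest p among those lower. Some of these values depend on the copies. Without the 1 h groups, Rpl21 differed by -0.83 alone and by -0.24 summed with its copies. Rpl6 differed by -0.79 and -0.71, and Rpl23 by -0.82 and -0.60. The copies of Rps7 moved against the gene, at 502 to 626 TPM in number 1 and 49.4 to 296 TPM in number 2. Rps27 stood at 511 to 705 TPM in the 6 libraries numbered 1 and 1414 to 3954 TPM in the 6 numbered 2, without overlap. Rpl6 stood at 2480 to 3067 TPM in number 1 and 1519 to 1895 TPM in number 2, also without overlap. In the 4 groups without the 1 h time, 42 members were higher in number 2 in every group and 24 lower in every group, where 38.4% and 14.9% of all genes were. In the fit over all 12 libraries, scaling by size factors called 28 members higher and 14 lower, where 18.1% of all genes were higher and 18.5% lower. The share of TPM taken by the 84 genes was 2.49 percentage points higher in number 2 (SD 3.15 over 6 pairs, 6 of 6 pairs higher). An exact two-sided sign-flip permutation test gave p = 0.0312, the smallest possible. Without the 1 h groups the difference was 0.486 points in 4 of 4 pairs (exact permutation p = 0.125, the smallest possible), and with size factors 0.817 points with 2 of 6 pairs higher (exact permutation p = 0.562).

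The 1 h libraries numbered 2 had a pattern of their own. In both, 63 of 81 members were above all other 10 libraries, where 16.7% of all genes were, and 3 members, Rpsa, Rplp2 and Rpl30, were below all 10, where 8.95% of all genes were. The libraries of the 2 labels were nearly the same for these genes: the median absolute log2 difference between them was 0.03 over the 81, and the highest 0.37. Against the other libraries numbered 2, the median log2 difference of members was 0.61, from -0.81 (Rpsa) to 3.39 (Rpl22l1), with 77 above 0. Copies moved the other way. Of 281 tested copies 144 were below all 10 libraries and 7 above, and of the 99 copies with a mean of 10 TPM or more 72 were below.

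Rpl31 and its copy Rpl31-ps8, identical over the stretch printed above, moved in opposite directions. Rpl31 stood at 428 to 521 TPM in 10 libraries and at 2095 and 2212 TPM in the 1 h libraries numbered 2. Rpl31-ps8 stood at 1243 to 1774 TPM in the 10 and at 289 and 239 TPM in the 2. Rpl5 and Gm15500 did likewise, Gm15500 standing at 1198 to 2059 TPM in the 10 and at 855 and 910 TPM in the 2. Summed with their copies, the log2 differences of Rpl31 and Rpl5 were 0.18 and 0.00, in place of 2.13 and 2.46 for the genes alone. Over the 21 members whose copies held more than 25% of the summed TPM in the other libraries, the median log2 difference was 1.11 for the gene alone and -0.04 for gene and copies together. Over the 16 members whose copies held less than 1%, it was 0.55 and 0.55. Rpl22l1 (3.39 alone and 3.28 summed), Rpl39 (1.93 and 1.90), Rps14 (1.51 and 1.5) and Rps27 (1.3 and 1.29) were the 4 highest of the summed differences. For the whole family the members' share of TPM with copies was 20.3% and 20.4% in the 2 libraries and 14.9% to 17.6% in the other 10. Summing with copies called 0 of 81 members in each comparison between groups, as for the genes alone.

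**Figure D4:**
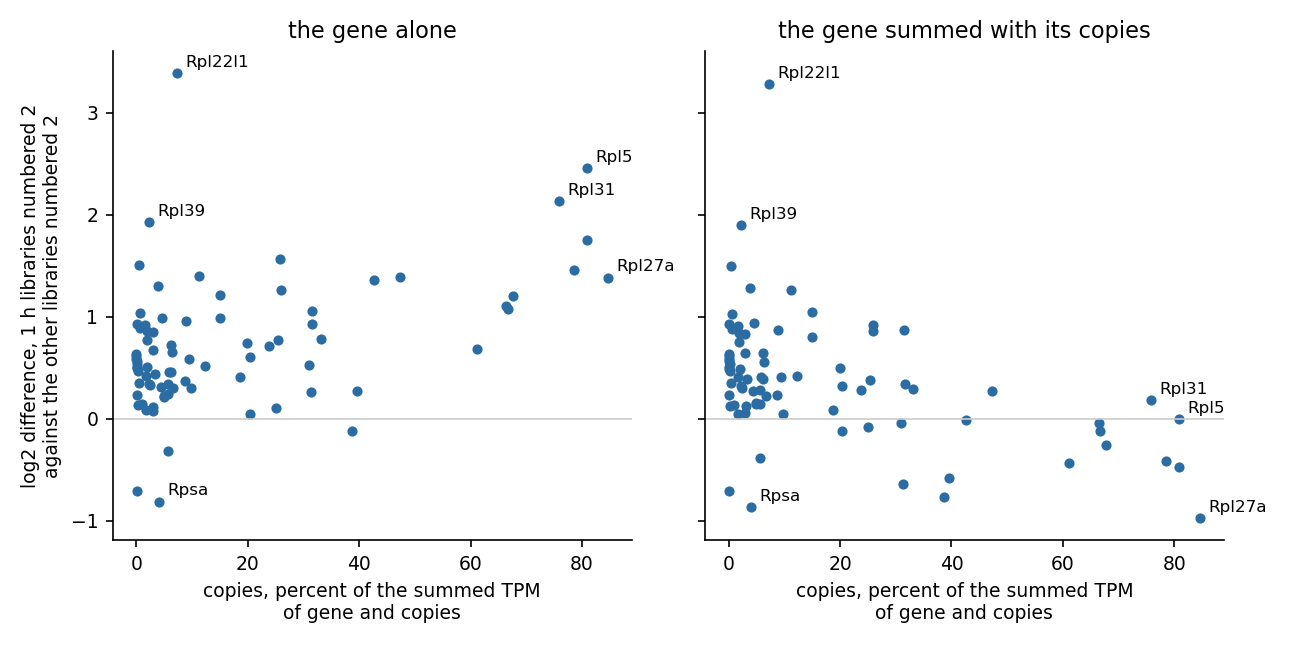
Log2 difference of TPM + 1 between the 1 h libraries numbered 2 and the other libraries numbered 2 (y axis) against the percentage of the summed TPM of gene and copies that the copies held in the other 10 libraries (x axis), 1 point per gene for 81 genes, for the gene alone (left) and summed with its copies (right). Rpl5 and Rpl31, whose copies held much of the summed TPM, move to near 0 on the right. Others with a large copy share move below 0, such as Rpl27a at -0.97. Rpl22l1 at 3.28 and Rpl39 at 1.90 stay high.

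The genes outside the list whose log2 levels followed the mean of the 81 members most closely over the 12 libraries were Atp5e (Pearson r = 0.986), Lsm7 (0.986), Ndufa7 (0.984), Fau (0.983), Selenoh (0.983) and Cox6a1 (0.982). These correlations are a description, since all 12 points share their library with the members and 2 libraries lie far from the rest. Without those 2, r lay between 0.829 (Fau) and 0.935 (Cox6a1). Fau, itself a ribosomal protein gene by its product, stood at 1065 to 1281 TPM in 10 libraries and at 1903 and 1879 TPM in the 1 h libraries numbered 2, and Atp5e, a subunit of the mitochondrial ATP synthase, at 97.3 to 203 TPM and at 581 and 564 TPM.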

How the data were processed

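Polyadenylated RNA of 12 libraries (6 groups of 2) was sequenced. The authors deposited a table of TPM, and per the submitters' processing notes RSEM 1.3.3, STAR 2.7.3a and HTSeq 0.12.3 were used with the build GRCm39, beside R 4.3.3 and DESeq2 1.42.1, and the notes give no roles. TPM keeps no depth, so no counting error is given. Symbols, gene types and transcripts came from GENCODE vM21 (GRCm38) by Ensembl identifier. Genes with TPM of 1 or more in at least 2 libraries (15535) were fitted on log2(TPM + 1) with limma, with a trend, 1 mean per group and 6 residual degrees of freedom (5 with the number as a block), and p-values were adjusted by Benjamini-Hochberg over all genes. Calls are adjusted p under 0.05. Fold changes on this scale understate changes of low genes. Single values were compared by exact permutation. The code was tested on simulated data.

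The labels number the libraries in every group. Deviations of same-numbered libraries from their group means correlated at 0.327 to 0.796 in all 15 pairs of groups, so the numbers were taken to pair the samples. Named genes were the paralogs and their partners, Rpl5, Rpl11, the stalk genes, Rpsa, Rps4x, up to 6 called members each way per comparison by smallest p (2 where none was called), the 3 highest, lowest, most and least variable members, and the 6 genes most like the members' mean. Rpl31 and other members of the copy comparison, and Rps19, Rpl10a, Rpl14, Rpl24 and the list genes, were named after their values were seen. The members and lists were chosen with earlier results of these data known. Alternatives were another pseudocount, other filters, size factors, quantile scaling, only the groups compared, no trend, the block, and libraries left out.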

Additional observations from a re-analysis of the deposited data

How the results depend on the processing

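With the replicate block, 2 members were called at 3 h under the knockout label and 2 between labels at 3 h, in place of 0; the counts were 2 and 2 with members summed with copies as well. With the block and without both 1 h libraries numbered 2, the counts were 3 and 8, and 4 for the difference of the 3 h responses; the cause was not tested. The block changed no other count of members called between groups. Without a filter 1 member was called in each of these 3 comparisons, Rpl10l, at 0.33 and 0.27 TPM in the 3 h libraries labelled knockout and listed at 0 in the others. Size factors moved the median difference between labels at 3 h to 0.33 and that of the 3 h responses to 0.37, with all genes moving to about 0. Leaving out 1 library gave medians of the difference of the 1 h responses from -0.24 (without the 1 h library numbered 1 of the wild type label) to 0.59 (without that numbered 2). The difference in the share of TPM by number was 0.817 points with size factors and 0.486 points without the 1 h groups. It was 1.51 to 2.93 points with 1 group (both its libraries) left out, where fewer pairs limit the smallest p. The difference in the Rps27l ratio ran from 0.21 to 0.72 with 1 library left out. The difference in the Rpl22l1 ratio ran from -0.66 to 0.90 with 1 library left out, and was -0.16, -0.14, -0.20 and -0.66 where it reversed. Copies close in sequence and 2 libraries per group limit the precision.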
